A study of Mus musculus with 4 samples.

Results

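The regions described here are genomic intervals called for OTX2 in definitive endoderm (DE) cells only, whose midpoint lay inside a protein-coding gene and more than 1 kb from either end of every protein-coding gene. They numbered 13093, which was 41.6% of the 31443 DE only regions on placed chromosomes (95% Wilson interval 41.1% to 42.2%), in a series of 39615 regions. The other DE only regions were 13884 between genes and 4466 at gene ends. OTX2 was measured by CUT&RUN, in which an antibody directs a nuclease to cut out the DNA at a bound protein, with anti-HA or control IgG on mouse OTX2-dTAG-EGFP cells of BL6/129 hybrid genotype, where dTAG is a tag for induced degradation and EGFP a fluorescent protein. Epiblast stem cells (EpiSCs), grown in Activin A, FGF2 and NVP, were taken with Activin A and CHIR for 16 h to primitive streak (PS) cells. PS cells were then taken with Activin A and LDN for 24 h to DE cells, which were sorted alive. The authors deposited 4 lists of coordinates, named DE only, PS and DE, PS only, and EPI and PS; the labels do not spell out EPI. The labelled libraries are all of PS cells, namely 3 with anti-HA from the cell lines 7H, 7H1 and 7H2 and 1 with IgG from 7H2. Libraries of EpiSC or DE cells were not used here.

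The lists carry no height, score or value per library, so depth is unknown, no replicate spread could be computed, and the tests below count regions. Neighbouring regions are not independent, which makes their p-values too small. Whether a region is in the DE only list depends on the calls in the other stages, so a region bound below the calling threshold in PS cells would also be in it.

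OTX2 is a homeodomain transcription factor of the bicoid class, and proteins of this class bind DNA with the core TAATCC. It acts in the epiblast, in anterior endoderm and in head formation, and later in the brain and in photoreceptors. Most binding by such factors lies away from the main promoter, at enhancers between genes or in introns, and an enhancer inside a gene may act on that gene or on another. A gene can also have further transcription start sites inside its span, so that a region inside a gene may still lie at a promoter. Exons, introns and untranslated parts were not told apart here, because the gene table used gives spans only.

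The sequences that could be read were those where a region met a RefSeq promoter window, which covers 250 bases before and 50 after a transcription start. Of the 13093 regions, 406 (3.10%) overlapped such a window, 340 of them at a start of the gene that holds the region and 66 at a start of another gene. The overlap reached 100 bp or more in 246. The bicoid core TAATCC, searched on both strands, was in 23 of these 246 overlaps (9.35%, 95% Wilson interval 6.31% to 13.6%). The same stretches held it in 3.65% of all 32851 RefSeq promoters. Of starts inside genes, 6221 had a promoter window that met none of the 13093 regions, and there it was 4.20%. This search was chosen after the reference was seen and covers a small, promoter-proximal part of the regions, so it is a description without a test.

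Examples with the core, and 2 from genes described below without it, are shown 5′ to 3′ on the gene's strand (RefSeq promoters, GRCm38, which is mm10), cut to the overlap and to at most 30 bases past the start. Capitals mark TAATCC, the forkhead core TGTTTAC and the GATA core AGATAA, on either strand. Aipl1, Gnat2, Rfx6, Shroom3 and Spdef were chosen from the stretches with the core after these were seen. Others with the core, such as those of Lyrm1, Vps37c, Pla2g5, Mettl3 and Anks3, are not shown. What the genes shown encode therefore does not describe the stretches with the core as a set.
Aipl1, chr11:72037486-72037611, minus strand: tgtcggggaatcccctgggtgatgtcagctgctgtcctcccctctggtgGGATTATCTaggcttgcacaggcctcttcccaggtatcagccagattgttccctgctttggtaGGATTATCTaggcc
Fhit, chr14:10453429-10453700, minus strand: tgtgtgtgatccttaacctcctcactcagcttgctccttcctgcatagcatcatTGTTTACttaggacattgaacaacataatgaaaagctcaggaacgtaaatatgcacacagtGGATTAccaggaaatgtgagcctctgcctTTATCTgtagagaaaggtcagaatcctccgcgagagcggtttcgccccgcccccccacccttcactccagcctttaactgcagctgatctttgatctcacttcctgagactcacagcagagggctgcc
Gnat2, chr3:108092832-108093087, plus strand: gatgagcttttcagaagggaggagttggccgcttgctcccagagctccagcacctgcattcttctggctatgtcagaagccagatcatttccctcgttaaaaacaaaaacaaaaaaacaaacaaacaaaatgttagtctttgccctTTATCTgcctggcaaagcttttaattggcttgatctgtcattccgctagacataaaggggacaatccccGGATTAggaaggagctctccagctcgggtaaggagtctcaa
Rfx6, chr10:51685268-51685513, plus strand: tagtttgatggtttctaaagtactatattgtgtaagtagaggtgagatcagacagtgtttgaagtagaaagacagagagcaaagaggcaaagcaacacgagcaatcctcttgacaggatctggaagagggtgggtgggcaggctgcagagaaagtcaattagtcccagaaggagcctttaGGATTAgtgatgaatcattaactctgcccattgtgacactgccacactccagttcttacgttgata
Shroom3, chr5:92897812-92897970, plus strand: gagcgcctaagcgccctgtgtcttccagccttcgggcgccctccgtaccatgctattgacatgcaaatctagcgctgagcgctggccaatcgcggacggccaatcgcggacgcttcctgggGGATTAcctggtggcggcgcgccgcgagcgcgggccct
Spdef, chr17:27728951-27729058, minus strand: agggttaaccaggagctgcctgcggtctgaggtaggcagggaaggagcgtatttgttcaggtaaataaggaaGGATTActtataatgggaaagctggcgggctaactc
Esrrg, chr1:187997666-187997856, plus strand: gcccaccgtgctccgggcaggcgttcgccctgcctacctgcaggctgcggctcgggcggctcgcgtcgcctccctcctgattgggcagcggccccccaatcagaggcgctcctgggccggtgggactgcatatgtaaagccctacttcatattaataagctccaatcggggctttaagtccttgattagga
Axin2, chr11:108920275-108920378, plus strand: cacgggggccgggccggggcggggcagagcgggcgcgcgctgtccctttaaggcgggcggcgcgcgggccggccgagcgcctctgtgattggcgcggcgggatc

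The Aipl1 stretch held 2 copies of the bicoid core, each overlapping a GATA core, with both cores on the strand opposite to the one shown. Aipl1 encodes a photoreceptor chaperone and Gnat2 the transducin subunit of cones, both genes of a cell type in which OTX2 acts. Rfx6 encodes a transcription factor of gut and pancreatic endoderm, Shroom3 a regulator of apical constriction in epithelia, and Spdef an ETS factor of secretory epithelia. The Fhit stretch held a forkhead core, a bicoid core and a GATA core in turn. The Esrrg and Axin2 stretches held none of the 5 cores searched. Over the 246 overlaps, TGTTTAC was in 6 (2.44%, against 1.86% of all promoters over the same stretches). The GATA core AGATAA was in 16 (6.50%, against 5.79%) and the SOX core CCTTTGT in 7 (2.85%, against 3.14%). The T-box core AGGTGTGA was in 0 (interval up to 1.54%, against 0.654%). The bicoid core had the largest ratio to all promoters of the 5, at 2.56.

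No difference between DE only regions and another list in the share inside genes passed the test. The share was 41.6% for DE only regions, against 42.5% for PS and DE (2614 regions, interval 41.2% to 43.7%), 41.4% for PS only (676 regions, 39.0% to 43.8%) and 37.2% for EPI and PS (141 regions, 32.5% to 42.2%). The differences were -0.815, 0.27 and 4.44 percentage points (Fisher's exact test, two-sided, Benjamini-Hochberg adjusted p = 0.282, 0.837 and 0.167 over 6 tests). Gene interiors took up 988 Mb. DE only regions had 13.2 regions per Mb there, against 8.55 between genes, a ratio of 1.55. Chromosome Y is counted, with 87920144 bases between genes and 1958039 interior bases, and densities without it were not computed. This ratio was 1.48 for PS and DE, 1.34 for PS only and 1.13 for EPI and PS regions.

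The regions were short. Their widths ran from 62 to 803 bp, with a median of 118 bp and quartiles of 85 and 170 bp. The median was 121 bp for DE only regions between genes and 123 bp for PS and DE regions inside genes. The widest, at 803 bp, lay at chr11:11867960-11868762 in Ddc, which encodes aromatic L-amino acid decarboxylase. Regions of 757 bp lay in Plekhm3 (chr1:64811478-64812234) and in Ppa2 (chr3:133338861-133339617), which encodes the mitochondrial inorganic pyrophosphatase. A region of 720 bp lay in Rarb, the retinoic acid receptor beta gene, at chr14:16572579-16573298, and another DE only region began 174 bp from it. The fifth, of 686 bp, lay in Chst15 (chr7:132250381-132251066), a chondroitin sulfate sulfotransferase gene. At the 1 kb margin of the rule, the regions just inside lay 1001, 1004 and 1005 bp from a gene end (in Rgs9bp, Eya1 and Marchf5), and those just outside 998, 999 and 999 bp (Creb3l4, Phldb3 and Araf).

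The regions spread over many genes, and most genes held few. Of 19256 protein-coding genes long enough to have an interior, 5591 (29.0%) held at least 1 region. Of these, 3029 held 1 and 1076 held 2. At the other end, 661 genes with 5 or more held 5123 regions (39.1%), and 125 genes held 10 or more. Genes with a region had a median length of 62.4 kb, against 14.8 kb for genes without. In genes of 2 to 10 kb, 288 of 5294 (5.44%) held a region, in those of 10 to 30 kb 1231 of 6456 (19.1%), and in those of 30 to 100 kb 2170 of 5077 (42.7%). In genes of 100 to 300 kb 1395 of 1872 (74.5%) held a region, and above 300 kb 507 of 557 (91.0%). The number per Mb of interior moved much less and was lowest in the longest genes, at 16.6, 14.6, 13.9, 14.5 and 10.2 from the shortest class to the longest. For the genes with the most regions, and for some others, the count is therefore given below beside the count that the length class would give. That is the number of the gene's interior bases times the class's rate. Where a count stands alone, it does not show that the gene is rich for its length.

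**Figure D1:**
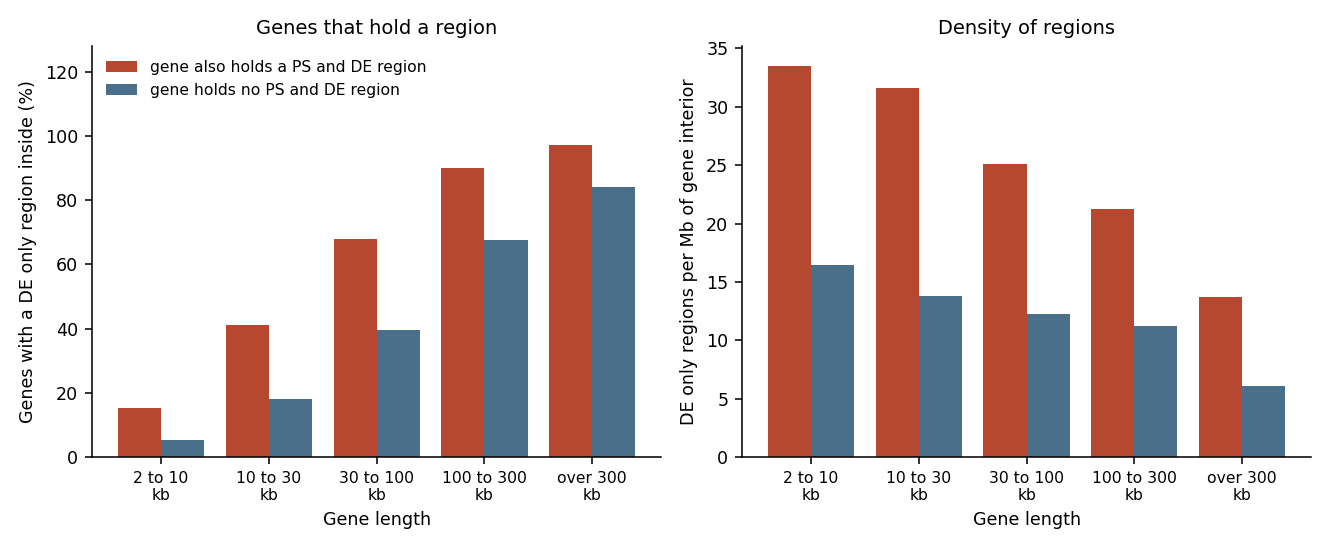
Left, share of protein-coding genes (%) with a DE only region inside, by gene length class; right, DE only regions per Mb of gene interior. Red bars are genes that also hold a PS and DE region inside and blue bars genes that hold none; red exceeds blue in each class, and above 300 kb the shares are 97.3% and 84.1% and the densities 13.7 and 6.09 per Mb.

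Genes that also held a region called in both PS and DE cells were the richer hosts in each length class. In genes of 30 to 100 kb, 67.9% of those with a PS and DE region inside held a DE only region, against 39.6% of those without, and the densities were 25.1 and 12.3 per Mb. In genes of 2 to 10 kb the shares were 15.2% and 5.35%, and in genes of 100 to 300 kb 90.1% and 67.5%. The plot by gene length shows all 5 classes. In all, 1305 of the 1745 genes with a PS and DE region inside (74.8%) held a DE only region, which was 23.3% of the host genes. No other list had a region inside 4062 of the 5591 host genes. Most genes of any kind lacked the other lists too. Of all 19256 genes with an interior, 1745 held a PS and DE region, 576 a PS only region and 135 an EPI and PS region. Gene length also varies within each class, and its part in these shares was not tested.

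Auts2, which encodes a regulator of transcription and neural development, held the most regions, 42 against 11.3 at its length class rate. Gse1, a subunit gene of a histone deacetylase complex, held 27 against 3.59. Aff1, which encodes a scaffold of the super elongation complex, held 20 against 2.33 in only 163 kb. Mecom, a zinc finger factor gene, held 21 against 5.69, and the nuclear receptor genes Esrrg and Rarb held 24 each, against 6.19 and 6.65. In these genes the count was at least 3 times that of the length class.

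In the other leading genes the count was nearer that of the length class. Fhit, a tumour suppressor gene at a fragile site, held 27 regions over 1612 kb, against 16.5 at its length class rate. Macrod2, which encodes an ADP-ribose hydrolase, held 27 against 20.4 over 1998 kb. Asic2, a proton-gated channel gene, held 21 against 11.1. Magi2, a junction scaffold gene, held 21 against 15.2, and Dab1, an adaptor of reelin signalling, 19 against 11.5.

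The first genes by count also differed in whether they held PS and DE regions. Gse1 and Aff1 held 7 PS and DE regions each, and all 27 and all 20 of their DE only regions had such a region within 50 kb. Auts2 held 11, and 30 of its 42 regions were that near. Fhit held 0, and 0 of its 27 regions were within 50 kb of any. Macrod2 held 3, and 4 of its 27 were that near. In Aff1 the median spacing of neighbouring region midpoints was 2.70 kb, against 50.2 kb in Fhit.

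Among genes with at least 5 regions, the densest per 100 kb were shorter. Tmem104, a membrane protein gene of 59.5 kb, held 11 regions, or 18.5 per 100 kb. Ltbp4, which encodes a latent TGF-beta binding protein, held 6 (17.4 per 100 kb), Asb4, an ankyrin repeat and SOCS box gene, held 8 (16.1), and Trim14, a tripartite motif gene, held 5 (16.1). Ypel2 held 9 (15.7), Ehf, an epithelial ETS factor gene, 6 (15.1), Arid3b, an AT-rich DNA binding factor gene, 7 (15.1), and Ddc 12 (14.3). Of these 8, Ltbp4, Trim14 and Ypel2 held 0 PS and DE regions and Asb4 held 3. The other 4 held 1 each.

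**Figure D2:**
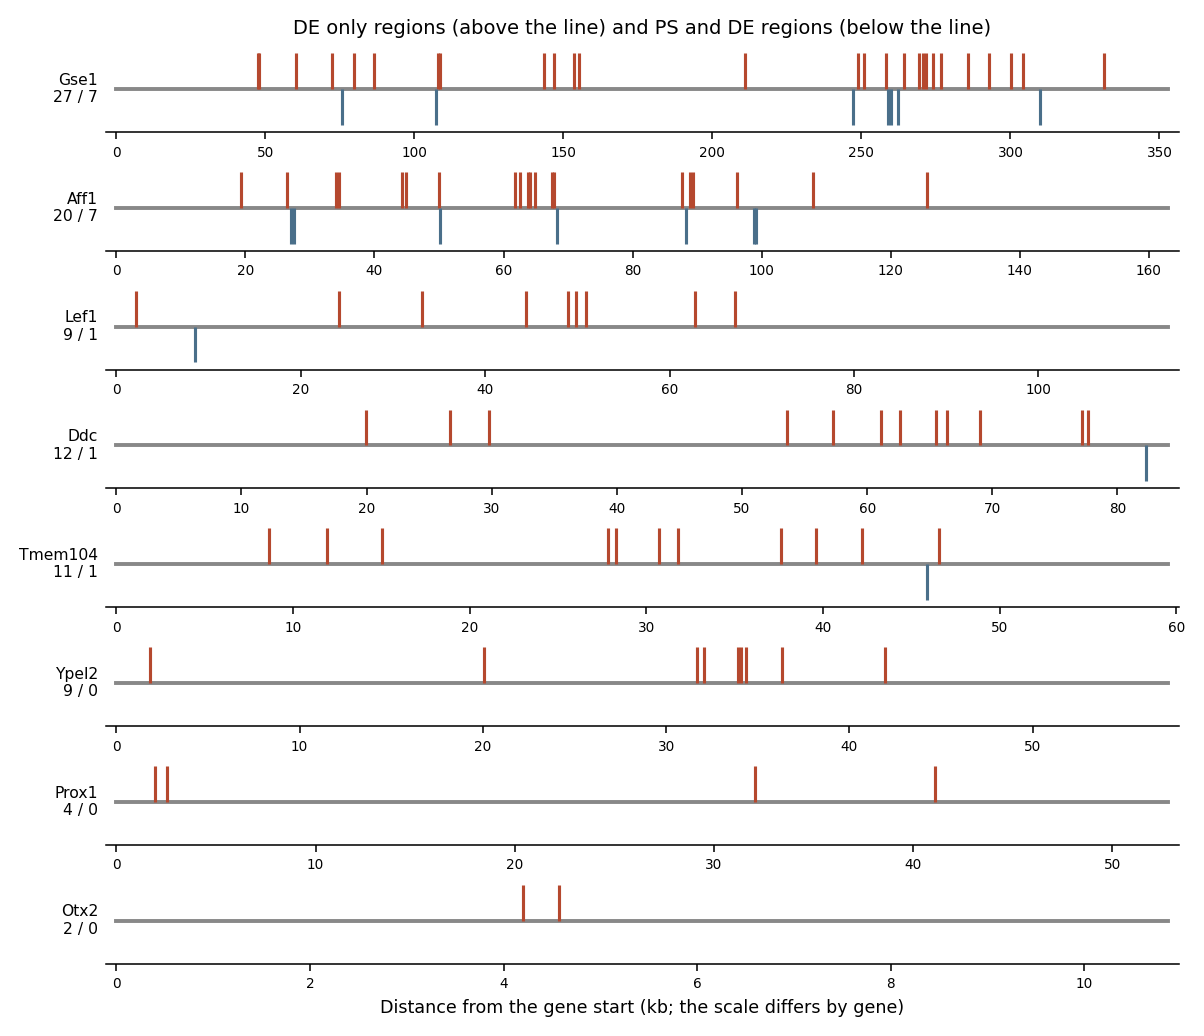
Positions of DE only regions (red, above the line) and PS and DE regions (blue, below) along 8 genes, as distance from the gene start in kb on a scale that differs by gene; the numbers under each symbol are the counts of DE only and PS and DE regions. Gse1 (27 and 7) and Aff1 (20 and 7) hold both kinds, in Aff1 with the PS and DE regions between 27.03 and 99.14 kb from the start, while Ypel2 (9 and 0), Prox1 (4 and 0) and Otx2 (2 and 0) hold DE only regions alone.

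The Otx2 gene itself (chr14:48656781-48667644) held 2 regions, at chr14:48662941-48663196 and chr14:48663377-48663518. They lay 4.58 and 4.20 kb from the gene start and 180 bp apart. The nearest PS and DE region was 44.6 kb from the closer of them.

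Of the definitive endoderm list, 13 of 22 genes held 0 regions, among them the factor genes Foxa2, Eomes, Gsc and Lhx1, which were chosen for mention after their values were seen and are at most 7.95 kb long. The list had 9 genes with a region, or 40.9%, against 17.5% over all genes of the same length classes. Its 20 regions were 3.18 times the number at the length class rates. Gata4, a zinc finger factor gene of early endoderm and heart, held 4, the closest 5707 bp from a PS and DE region. Gata6, which acts with Gata4, held 3 in 33.1 kb, with 342 bp between the last 2. Cdh1, the E-cadherin gene, held 3, at 160, 246 and 192 bp wide, and the first lay 945 bp from a PS and DE region.

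The anterior endoderm and foregut list had 6 of 16 genes with a region (37.5%, against 17.0%). Its 10 regions were 1.98 times the length class number and 1.38 times without Prox1. Prox1, a homeobox gene of liver and pancreas progenitors, held 4, of which 2 lay 1.93 and 2.52 kb from its start. Their nearest PS and DE region was 365153 bp away. Hhex, a homeobox gene of anterior endoderm that is only 5.89 kb long, held 1 at chr19:37436866-37437051, and a PS and DE region lay 700 bp away. Nepn, a marker of foregut and midgut endoderm, held 1. The posterior endoderm and hindgut list had 5 of 13 (38.5%, against 15.7%) with 16 regions, 3.57 times the length class number. Of these, Wnt5a, a ligand gene, held 2 and Cdx1, a caudal homeobox gene, 1.

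The primitive streak and mesendoderm list had 7 of 17 genes with a region (41.2%, against 13.9%). Its 15 regions were 4.41 times the length class number and 3.38 times without Lef1. Lef1, a transcription factor of WNT signalling, held 9 against 1.63. Axin2, a feedback inhibitor of the pathway, held 1 (chr11:108920275-108920450), at the internal start shown above. Cyp26a1, whose enzyme degrades retinoic acid, and Foxh1, which encodes a partner of SMAD2, held 1 each in spans of 3.80 and 3.79 kb. The epiblast and pluripotency list had 9 of 20 (45.0%, against 28.3%) and 24 regions, 1.97 times the length class number. Tead1, a Hippo pathway factor gene, held 7, Esrrb, a naive pluripotency receptor gene, 6, and Dnmt3a, a DNA methyltransferase gene, 4.

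Signalling lists held 1.32 to 1.81 times the number of regions at their length class rates. Without the gene with the most regions, the ratio was 1.70 for WNT and 1.14 for NODAL and activin. It was 1.57 for BMP and 1.66 for FGF and receptor tyrosine kinase. The WNT list had 27 of 40 genes with a region (67.5%, against 45.8%) and 80 regions, 1.81 times the length class number. Its receptors Ror1, Lgr5 and Lgr4 held 11, 8 and 7, and Lgr4 and Lgr5 held 0 PS and DE regions against 6 in Ror1. The NODAL and activin list had 12 of 25 (48.0%, against 28.6%) with 21 regions, a ratio of 1.32. Pcsk6, a proprotein convertase gene, held 6, Smad3 3, and Smad2 and the repressor gene Tgif1 2 each. The BMP list had 12 of 19 (63.2%, against 44.0%) with 38 regions, a ratio of 1.61. The extracellular modulator gene Bmper held 7, against 3.77 at its length class rate. The receptor genes Acvr1 and Bmpr1b held 5 and 4, against 1.71 and 3.38. The ligand gene Bmp7 held 4, against 0.977, beside 4 PS and DE regions. The FGF and receptor tyrosine kinase list had 17 of 29 (58.6%, against 34.4%) with 43 regions, a ratio of 1.34. Erbb4 held 8, against 11 at its length class rate, while Fgfr2 held 6 against 1.48, Igf1r 6 against 4.05 and Met 3 against 1.58.

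Lists of structural and regulatory genes were mostly long, and most of their genes held a region. The transcriptional co-regulator and chromatin list had 25 of 32 (78.1%, against 63.4%) with 157 regions, 2.05 times the length class number and 1.77 times without Auts2. Besides Auts2 and Gse1, the deacetylase gene Hdac9 held 11, against 8.88 at its length class rate, and the corepressor gene Rere 10, against 3.46. The epithelial junction and polarity list had 23 of 31 (74.2%, against 51.3%) with 112 regions, a ratio of 1.61. The junction scaffold genes Magi2 and Magi1 held 21 and 17, against 15.2 and 6.21 at their length class rate. The polarity genes Pard3 and Pard3b held 12 and 11, against 5.60 and 10.3. The axon guidance list had 26 of 28 (92.9%, against 78.2%) with 163, a ratio of 1.44, led by the receptor gene Robo1 with 19, its ligand gene Slit3 with 15, the ephrin gene Efna5 with 11 and Slit1 with 9.

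**Figure D3:**
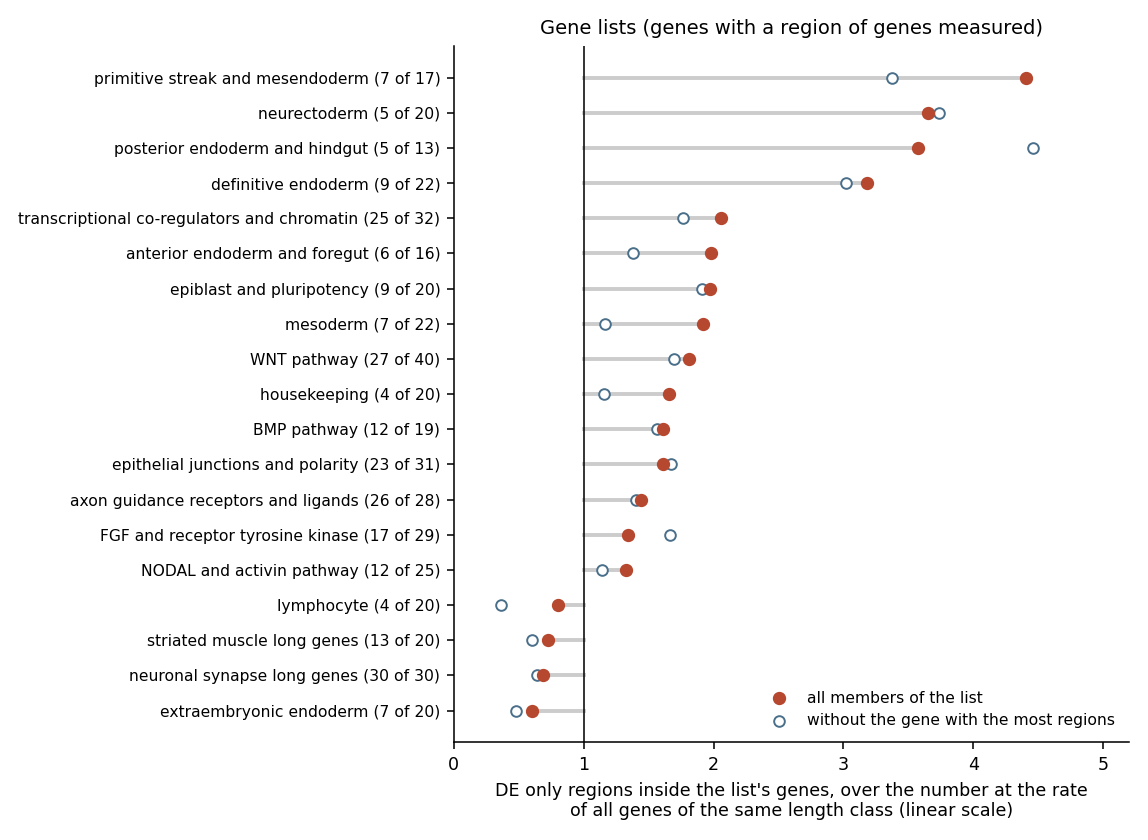
DE only regions inside the genes of 19 lists, as a multiple of the number at the rate of all genes of the same length class (linear scale; 1 marks the same rate); filled red points are all genes of a list and open points leave out its gene with the most regions. Counts in brackets are genes with a region of genes measured. The ratio runs from 4.41 for primitive streak and mesendoderm to 0.599 for extraembryonic endoderm.

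Lists of other lineages fell on both sides. The neurectoderm list had 5 of 20 genes with a region (25%, against 15.9%), with 26 regions and a ratio of 3.65. Lmx1a and Lmx1b, homeobox genes of the roof plate and midbrain, held 8 each, the paired box genes Pax3 and Pax2 6 and 3. The mesoderm list had 7 of 22 (31.8%, against 23.3%) with 21, a ratio of 1.92 that was 1.16 without Runx1. Runx1, a blood factor gene, held 12 against 3.23, Tbx5 3 against 1.21, Mef2c 2 against 2.34 and Gata1 1 against 0.225. The housekeeping list had 4 of 20 (20.0%, against 13.3%) with 5 regions, a ratio of 1.65 that was 1.15 without Ywhaz. Ywhaz held 2 and Actb, Gapdh and Polr2a 1 each.

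Below 1 were the extraembryonic endoderm list, the lists of long neuronal and muscle genes and the lymphocyte list. Extraembryonic endoderm genes, which mark yolk sac and visceral endoderm, held a region in 7 of 20 (35.0%, against 40.8%), with 11 regions and a ratio of 0.599. The basement membrane collagen genes Col4a1 and Col4a2 held 3 each, against 1.63 and 1.95 at their length class rate. Apob and Cubn held 1 each, against 0.517 and 3.10. Long synapse genes held a region in 30 of 30 (100%, against 91.0%), but their 229 regions were 0.684 times the length class number. Their median length was 1041 kb, and the part of length within the class over 300 kb was not tested. Asic2 held 21, against 11.1 at its length class rate, and Dlgap1 16, against 8.70. Nrxn3 held 16, against 16.5, and Cntn5 15, against 13.0. Striated muscle genes held a region in 13 of 20 (65.0%, against 59.6%), with 52 regions and a ratio of 0.721. Ryr2 held 12 against 5.65 and Cacna1c 8 against 6.20, while Sgcd held 6 against 10.4 and the X-linked Dmd 7 against 24.3. Lymphocyte genes held a region in 4 of 20 (20.0%, against 34.7%), with 16 regions and a ratio of 0.803, which was 0.366 without Bach2. Bach2 held 10 of them, against 3.54 at its length class rate. Ebf1, Themis and Pax5 held 3, 2 and 1, against 3.97, 3.10 and 2.67. Over all 19256 genes the median count was 0 and the mean 0.68 regions. The lists were chosen with results of these data known and received no test.

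DE only regions inside genes lay near PS and DE regions slightly more often than DE only regions between genes did. Distance was taken from the midpoint to the nearest edge of a PS and DE region. Within 50 kb were 4693 of 13093 (35.8%, interval 35.0% to 36.7%), against 4487 of 13884 (32.3%, 31.5% to 33.1%). The difference of 3.53 percentage points passed Fisher's exact test (two-sided, Benjamini-Hochberg adjusted p = 6.09e-09). With 1 region per gene it was 0.852 points and did not pass the exact test (adjusted p = 0.393). Of interior bases, 21.7% lay that near, against 13.8% of bases between genes, a larger difference than that in regions. Chromosome Y lowers the share between genes, since 0 of its 87920144 bases there lay that near. Inside genes alone, the density was 21.9 regions per Mb up to 50 kb from a PS and DE region and 10.9 per Mb farther away, a ratio of 2.01.

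By median gap, other DE only regions were the closest neighbours of these regions. The edge-to-edge gap to another DE only region had a median of 13.0 kb and was at most 1 kb for 1571 regions (12%) and at most 10 kb for 43.9%. The gap to a PS and DE region had a median of 89.7 kb and was at most 1 kb for 360 (2.75%). A PS only region lay within 1 kb of 51 and an EPI and PS region within 1 kb of 6. The lists differ in size, so these shares do not rank the lists. The closest pairs with a PS and DE region had gaps of 67 bp in Kcnk5, a potassium channel gene, 69 bp in Dmrt1, a sex determination factor gene, and in Msantd2, 71 bp in Pip5k1b, a lipid kinase gene, and 74 bp in Hspb8, a small heat shock protein gene. In Pip5k1b another DE only region lay 68 bp away, and Hspb8 (14.4 kb) held 2 DE only and 2 PS and DE regions.

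No difference in position within the gene from PS and DE regions passed the test. Within 10 kb of either end of the gene lay 28.7% of DE only regions, against 27.4% of PS and DE regions inside genes (Fisher's exact test, two-sided, adjusted p = 0.282). Of the bases inside the host genes, 26.9% and 25.6% lay in that window. Strand was known for 10154 of the 13093 regions (77.6%), so values from the gene start leave out the rest. Within 10 kb of the start lay 20.4% of those DE only regions, against 18.6% of 2022 PS and DE regions (the same exact test, adjusted p = 0.167). The shares of host gene bases there were 16.1% and 14.3%. With 1 region per gene, that with the lowest start, the differences were larger and passed. They were 12.5 points for either end and 10.01 points for the start (the same exact test, adjusted p = 1.33e-19 and 6.52e-12). In genes with more regions, the region taken this way tends by construction to lie nearer an end. These larger values therefore cannot be read as a difference in position. Within 5 kb of the start lay 11.7% of the DE only regions, 1.47 times the 7.96% of bases. In genes of at least 30 kb, 12.2% of 8694 DE only regions fell in the first of 10 equal parts of the gene and 8.73% in the last, against 12.7% and 8.65% of 1757 PS and DE regions.

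**Figure D4:**
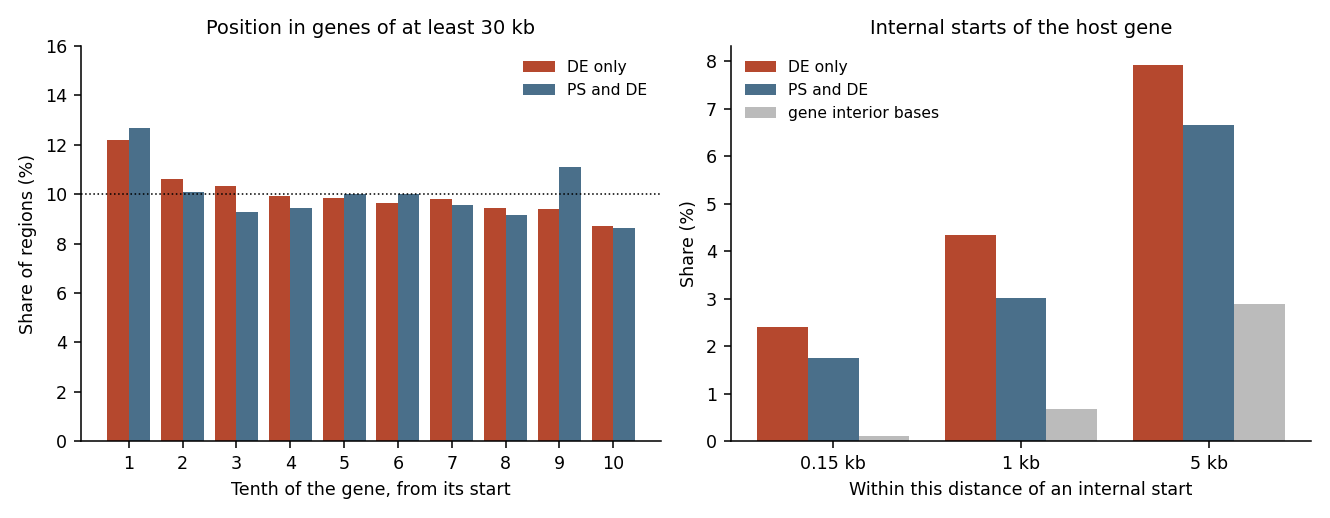
Left, share of regions (%) in each of 10 equal parts of genes of at least 30 kb, counted from the gene start, with the dotted line at 10%. Right, share (%) within 0.15, 1 and 5 kb of a start that lies inside its own gene, beside the share of gene interior bases (grey). Red bars are DE only and blue bars PS and DE regions inside genes; the first part holds 12.2% and 12.7% of them, and within 0.15 kb of an internal start the shares are 2.40%, 1.74% and 0.115% of bases.

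The regions were dense at transcription starts that lie inside the gene they belong to. RefSeq gives 6671 starts inside genes, 3865 of them of the host gene itself. Leaving out chromosome 18, for which no starts were used, 304 of 12649 DE only regions (2.40%) lay within 0.15 kb of a start inside its own gene. Of interior bases 0.115% lie there, a ratio of 20.9. Whether the gene of the start also held the region was not checked. Within 1 kb were 550 (4.35%, ratio 6.37), and within 5 kb 1002 (7.92%, ratio 2.75). PS and DE regions had 44 of 2523 (1.74%, ratio 15.2) within 0.15 kb and PS only regions 9 of 647 (1.39%, ratio 12.1). These shares were not tested against each other. In 5 genes a region covered the whole 300 base window: Prdm1, which encodes a repressor also called BLIMP1, the lysophosphatidic acid receptor gene Lpar1, the exchange factor gene Arhgef1, Pde4dip and the deubiquitinase gene Otud5.

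The X chromosome held few of the regions. It had 224, or 5.12 per Mb of gene interior, against 13.7 on the autosomes, a ratio of 0.375. The autosomes ran from 11.7 on chromosome 16 to 17.4 on chromosome 11, with 15.8 on chromosome 19, so X lay outside their range. The Y chromosome held 0. PS and DE regions inside genes had the same order, at 0.594 per Mb on X and 2.75 on the autosomes, a ratio of 0.216. The sex of the cell lines is not given in the labels used, and the copy number of X cannot be told apart from binding per copy here.

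**Figure D5:**
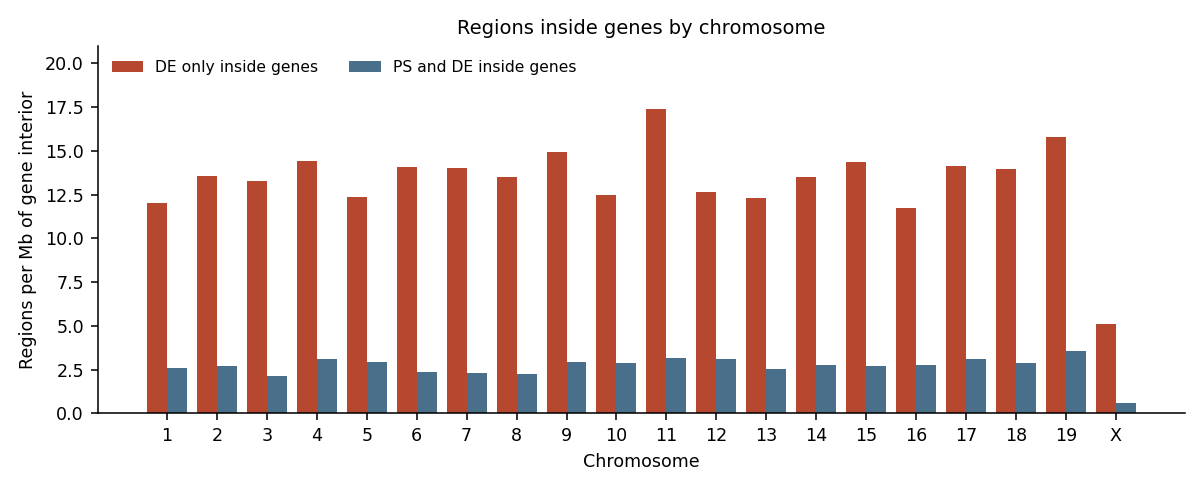
Regions per Mb of gene interior on each chromosome, red for DE only and blue for PS and DE regions inside genes. X lies at 5.12 and 0.594 per Mb, below each autosome in both lists, and chromosome 11 has the highest DE only value at 17.4.

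Regions beside small RNA genes and in spans of long non-coding RNA genes were counted. The shares of interior bases there were not computed, so these counts cannot be called high or low. A miRNA hairpin lay within 1 kb in 17 pairs of region and hairpin, and regions overlapped 3 hairpins, Mir1894 in Ppp1r10, Mir6353 in Pid1 and Mir6403 in Man1c1. In Larp7, whose span holds the miR-302 cluster of pluripotent cells, a region at chr3:127544339-127544429 lay 798 bp from Mir302b and 933 bp from Mir302c. Larp7 was singled out after its values were seen. The spans of long non-coding RNA genes held 797 of the region midpoints (6.09%).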

How the data were processed

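The authors deposited region lists (unit: other), with chromosome, start and end only, per the file contents. The submitters' processing notes name mm10, MACS2 2.2.6, bedtools 2.30, Picard 2.26.10, SAMtools 1.14 and Bowtie2 2.3.5.1. For the peak threshold, the use of IgG and the combination of replicates and stages, settings were not given in the sources used here.

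Starts were converted to count from 1. Regions were placed by midpoint against 21887 protein-coding spans of RefSeq GRCm38.p6, taking the shortest span that holds the midpoint. DE only regions on unplaced scaffolds were left out. RefSeq promoters gave strand for 17492 genes. All 453 symbols of the 20 gene lists matched. The members and lists were chosen with earlier results of these data known. Genes named are the 12 with the most regions, the 8 densest among those with at least 5, up to 4 per list, Otx2, and the hosts of the 5 widest regions and of the 5 closest to a PS and DE region. Genes at the 1 kb margin, with a whole promoter window covered or with an overlapped miRNA hairpin are named outside these rules, where those values are given. Other names are marked as chosen later. Some genes and 1 list chosen this way are not reported here.

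The 6 tests were two-sided Fisher's exact tests (scipy 1.17.1, Python 3.11.15) with Benjamini-Hochberg adjustment and a threshold of 0.05. Wilson 95% intervals cover counting error only. The counting was tested on simulated regions. Depth per library is unknown.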

Additional observations from a re-analysis of the deposited data

How the results depend on the processing

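The alternatives were every base inside the gene, a 2.5 kb margin, a minimum width of 150 bp, a minimum width at each list's median, merging within 500 bp, other distances, 1 region per gene, and every gene that spans a midpoint. Of 45 recomputed main values, 37 stayed on their side of the threshold, or within 1.5 times for counts. The 37 include those for every base inside the gene, which gave the main values again and could not differ. The widest DE only region inside a gene had 803 bp, and midpoints lay more than 1 kb from gene ends. No difference that passed the test changed sign, but some that did not pass did. DE only minus PS only in the share inside genes was -0.182, -1.99 and -1.29 points with the 2.5 kb margin and the minimum widths of 150 bp and of the median, against 0.27. At the median width the differences near either end and near the start were -0.100 and -0.552 points, against 1.28 and 1.71. The difference in share near a PS and DE region, DE only inside minus DE only between genes, was positive throughout but missed the threshold in Fisher's exact test at the minimum widths of 150 bp (1.83 points, adjusted p = 0.0564) and of the median (1.57 points, 0.153), at 10 kb (1.01 points, 0.0703), and with 1 region per gene (0.852 points, 0.393). With 1 region per gene, the share near either gene end differed by 12.5 points (46.8% of DE only and 34.3% of PS and DE regions, exact test, adjusted p = 1.33e-19), and near the start by 10.01 points (33.8% and 23.8%, 6.52e-12). There the region with the lowest start is taken, which by construction tends to lie nearer an end in genes with more regions. Host genes numbered 2626 with regions of at least 150 bp and 3492 at the median width, where fewer regions remain, and 4962 to 5631 otherwise. Counts of list genes stayed within 1.5 times in 96 of 120 comparisons, with regions of at least 150 bp in 7 of 20. The 96 include all 20 for every base inside the gene, which could not differ.

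The planned motif test over whole regions was not run, since no genome of the build was used. No paired analysis was possible because the lists carry no value per library, so leaving out a replicate was not done either. Depth and region height are unknown here.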
